A study of Mus musculus with 3 samples.

Results

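The genes described here are 9 markers of cellular senescence and of the inflammatory secretome that accompanies it, measured in stromal cells of the aged mouse thymus. They are the cell cycle inhibitors Cdkn2a, Cdkn2b and Cdkn1a, the cytokines Il6, Lif, Il33 and Gdf15, the matrix protease Mmp3 and the growth factor binding protein Igfbp3. They were chosen by symbol, and all 9 were found among the 32293 features of the count matrices. Single-cell RNA-seq counted unique molecular identifiers (UMIs, one per captured transcript) in 3 libraries of CD45- thymic stroma from untreated C57BL/6 mice of 20 months. The 2 libraries named Foxn1Lin, from females and from males, came from mice in which Foxn1-Cre switches on a tdTomato reporter at Rosa26, which labels cells that have ever expressed Foxn1, and the third library came from wild type males. Each library was the only one of its group and came from pooled thymi, so sex, genotype and library cannot be told apart, and between libraries there are values and no tests. The protocol in the labels names female mice for all 3 libraries, and the cell type field of the wild type library reads CD45-PECAM1+, although that library held 867 thymic epithelial cells beside 855 endothelial cells.

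Senescent cells leave the cell cycle for good. The p16Ink4a product of Cdkn2a and the product of Cdkn2b hold the retinoblastoma pathway by inhibiting cyclin D kinases. Counts of Cdkn2a also include its other transcript, for p19Arf, to which this does not apply. Cdkn1a, which encodes p21, is induced by p53 and by many acute stresses. Such cells often secrete cytokines, proteases and binding proteins, but fibroblasts and endothelium also make several of these proteins in inflammation and during tissue dissociation, so a single transcript does not identify a senescent cell. In the thymus, which shrinks with age, thymic epithelial cells (TEC) support T cell development while fibroblasts (FB) and mural cells form the mesenchyme and endothelial cells (EC) line the vessels.

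Of 17677 called barcodes, 17168 passed the quality filter and 11385 fell into exactly 1 of 6 classes. A class was set by UMI counts: TEC held at least 2 UMIs of Epcam, EC 2 of Pecam1, FB 2 of Pdgfra, mural cells a sum of 5 of Rgs5 and Acta2, and mesothelial cells 2 of Upk3b. Spp1-high barcodes held at least 5 UMIs of Spp1, at most 1 of Epcam and none of Ptprc. In the order Foxn1Lin female, Foxn1Lin male and wild type male, which is kept throughout, there were 464, 426 and 867 TEC, 1878, 818 and 855 EC, 1848, 860 and 1705 FB, and 424, 443 and 350 mural cells. Mesothelial cells numbered 338, 0 and 36 and Spp1-high barcodes 11, 28 and 34. Barcodes in 2 classes (1236) and in none (4547) were left out. Total UMIs were 53366016, 33386621 and 61258534. Libraries shared between 11 and 22 of their barcodes with the others. The summed level of each class's own marker list exceeded that of the same list in the other named classes, except that mesothelial cells also carried 9535 to 10310 CPM (UMIs per 1000000 UMIs of the class) of the FB list, against 15090 to 17580 in FB. Each list includes the gene or genes that set its class, so the rule fixes part of this outcome and it is no independent check of the classes. In the 2 libraries with at least 20 of them, Spp1-high barcodes carried 4028 to 4862 CPM of the FB list and 828 to 938 of the TEC list, and were given no cell type name. Hematopoietic markers summed to 448 to 815 CPM in TEC and to at most 208 in the other classes. Cd52 was the largest part of the sum in TEC, at 421, 280 and 235 CPM. Ptprc was lower in TEC (25.1, 6.06 and 7.31 CPM) than in EC (29.2, 17.2 and 64.1).

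The promoter sequences of 5 members are shown as context for the genes described most closely below: Cdkn2a, whose 2 starts a 3' count cannot separate, its neighbour Cdkn2b, and the stress and inflammation genes Cdkn1a, Il6 and Mmp3. No result below uses these sequences. Each is the 250 bases before a RefSeq start in GRCm38.p6, read 5′ to 3′ on the strand of the gene, with motif matches in capitals. Cdkn2a has a distal start, that of p19Arf (chr4:89294620-89294869, minus strand), and a proximal one, that of p16Ink4a (chr4:89282193-89282442, minus strand). The others are Cdkn2b (chr4:89311033-89311282, minus strand), Cdkn1a (chr17:29090729-29090978, plus strand), Il6 (chr5:30012864-30013113, plus strand) and Mmp3 (chr9:7445572-7445821, plus strand).
p19Arf: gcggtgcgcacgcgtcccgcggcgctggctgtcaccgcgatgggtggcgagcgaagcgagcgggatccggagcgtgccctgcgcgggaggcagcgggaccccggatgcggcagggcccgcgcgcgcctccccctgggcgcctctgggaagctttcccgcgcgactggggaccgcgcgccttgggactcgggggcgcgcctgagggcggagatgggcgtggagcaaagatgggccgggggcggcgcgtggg
p16Ink4a: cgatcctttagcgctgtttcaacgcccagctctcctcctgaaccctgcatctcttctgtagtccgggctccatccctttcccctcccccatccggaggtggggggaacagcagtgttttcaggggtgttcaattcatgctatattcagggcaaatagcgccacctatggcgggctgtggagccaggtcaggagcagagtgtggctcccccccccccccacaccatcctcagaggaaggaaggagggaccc
Cdkn2b: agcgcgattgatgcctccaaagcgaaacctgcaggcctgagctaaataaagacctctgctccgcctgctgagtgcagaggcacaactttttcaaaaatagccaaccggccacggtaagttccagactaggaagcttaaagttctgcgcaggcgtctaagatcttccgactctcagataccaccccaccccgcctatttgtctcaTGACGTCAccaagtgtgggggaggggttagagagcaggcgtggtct
Cdkn1a: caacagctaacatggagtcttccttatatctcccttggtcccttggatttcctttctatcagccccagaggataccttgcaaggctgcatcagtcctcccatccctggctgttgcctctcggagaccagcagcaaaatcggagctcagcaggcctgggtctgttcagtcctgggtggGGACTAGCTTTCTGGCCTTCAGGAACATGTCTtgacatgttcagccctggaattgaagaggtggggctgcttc
Il6: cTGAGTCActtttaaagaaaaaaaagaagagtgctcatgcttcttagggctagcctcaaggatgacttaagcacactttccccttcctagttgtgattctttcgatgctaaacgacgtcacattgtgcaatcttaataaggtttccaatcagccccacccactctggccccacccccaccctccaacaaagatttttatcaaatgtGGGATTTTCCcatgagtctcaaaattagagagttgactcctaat
Mmp3: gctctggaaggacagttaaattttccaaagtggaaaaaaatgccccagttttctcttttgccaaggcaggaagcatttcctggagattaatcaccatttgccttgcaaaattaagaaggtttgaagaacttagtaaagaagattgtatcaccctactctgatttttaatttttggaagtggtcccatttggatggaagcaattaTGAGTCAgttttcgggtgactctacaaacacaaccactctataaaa

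Of the 4 motifs searched on both strands, the cyclic AMP response element TGACGTCA was found in the Cdkn2b window and lay in 1.55% of all 32851 promoter windows of that length. The p53 consensus, allowing a spacer, was found in the Cdkn1a window shown and lay in 0.0639% of all windows. The window of another Cdkn1a start (chr17:29093519-29093768, plus strand), not shown, held none of the 4 motifs. The AP-1 site TGANTCA was found in the Il6, Lif and Mmp3 windows and lay in 6.75% of all, and the NF-kB consensus was found in the Il6 and Lif windows and lay in 7.25% of all. Neither Cdkn2a window held any of the 4. A match is a description of these letters only.

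Cdkn2a (chr4:89274471-89294653, minus strand) was a TEC and FB transcript. Its level in TEC was 37.5, 25.2 and 21.4 CPM, with exact 95% Poisson intervals of 32.9 to 42.5, 21.4 to 29.4 and 19.3 to 23.6, which cover counting error only. In FB it was 8.76, 35.9 and 33.3 CPM. The Foxn1Lin female FB were low, and the 2 male libraries were close to each other. In EC it was 2.03, 0.789 and 1.08 CPM and in mural cells 4.18, 1.12 and 4.20, where 8, 3 and 10 UMIs were counted. Droplets without a cell held 11.4, 17.8 and 15.9 CPM, above EC and mural cells and below TEC. FB were below the droplets of their own library in the Foxn1Lin female library and above them in both male libraries. The 2 annotated transcripts, for p16Ink4a and p19Arf, end within 70 bases of each other, so the counts are their sum.

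Tested within libraries over summed counts with edgeR's quasi-likelihood test, Cdkn2a was lower in EC than in TEC by a log2 fold change of -4.14 (SE 0.59, adjusted p = 8.06e-05). It was lower in mural cells than in TEC as well, at -3.0 (SE 0.63, adjusted p = 0.00192). FB and TEC differed by -0.00 with an SE of 0.80, so the order of these classes was not resolved, and it did turn between the female and the male libraries.

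Cdkn2b (chr4:89306299-89311039, minus strand), which lies next to Cdkn2a and encodes p15, was highest in TEC in every library, at 38.7, 43.0 and 28.2 CPM. FB followed with 8.05, 18.3 and 20.6 CPM, and EC held 3.21, 1.31 and 1.88. Droplets without a cell held 13.6, 26.5 and 18.0 CPM, so TEC were above them in each library, whereas FB were below them in both Foxn1Lin libraries and close to them in the wild type library. FB were lower than TEC by a log2 fold change of -1.12 (SE 0.35, adjusted p = 0.0171). This call was lost without the Foxn1Lin female (-0.53, adjusted p = 0.12), the Foxn1Lin male (-1.09, adjusted p = 0.0808) or the wild type library (-1.32, adjusted p = 0.0709), with either change of the class thresholds (-0.67 and -1.08) and with doublets removed (-0.81). EC were lower by -3.82 (SE 0.42, adjusted p = 9.74e-06). After each cell was thinned to 2000 UMIs, which leaves out shallower cells, 6.43%, 6.11% and 4.62% of TEC held a UMI of Cdkn2b and 0.443%, 0% and 0% of EC. For Cdkn2a these shares were 5.54%, 3.91% and 3.91% of TEC and 1.76%, 4.43% and 4.22% of FB. Without thinning, Cdkn2b was seen in 22.2%, 20.2% and 23.3% of TEC, whose median depths of 10965, 12429 and 16229 UMIs exceeded those of EC (3855, 7380 and 6983).

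Cdkn1a (chr17:29090976-29100727, plus strand) had the opposite distribution. EC held 881, 816 and 387 CPM, mural cells 523, 741 and 350, FB 255, 280 and 133, and TEC 212, 136 and 77.2. Mesothelial cells held 481 CPM in the Foxn1Lin female and 522 in the wild type library, where 1 cell carried 20.7% of the UMIs. In each library EC were highest or next to mesothelial cells, and the wild type library was lowest in EC, FB, mural cells and TEC. Droplets without a cell held 289, 275 and 134 CPM, close to FB and above TEC. EC exceeded TEC by a log2 fold change of 2.53 (SE 0.28, adjusted p = 9.64e-06) and FB by 1.73, the FB value against EC being -1.73 (SE 0.27, adjusted p = 0.000227). EC and mural cells did not pass the test against each other (-0.38, SE 0.26, adjusted p = 0.29). At 2000 UMIs 66.8%, 67.5% and 41.8% of EC held Cdkn1a, against 23.7%, 16.6% and 11.8% of TEC.

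A list of 27 immediate early and stress genes, such as Fos, Jun and Hspa1a, was higher in Cdkn1a-positive cells in EC, FB and mural cells but not in TEC. EC with a UMI of Cdkn1a held 41.1, 41.1 and 36.2 stress UMIs per 2000 on average, and EC without one held 26.5, 28.2 and 27.0. In FB the same comparison gave 42.9, 58.4 and 46.7 against 38.5, 52.3 and 39.7. In TEC it gave 28.2, 35.4 and 28.9 against 27.8, 36.6 and 31.5, with the positive cells lower in 2 of 3 libraries. Over whole classes the list summed to 17380, 18660 and 15830 CPM in EC, 13770, 19370 and 17230 in TEC, 19100, 26560 and 19780 in FB, and 20180, 29940 and 30030 in mural cells. The part of tissue dissociation in the level of Cdkn1a was not tested.

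**Figure D1:**
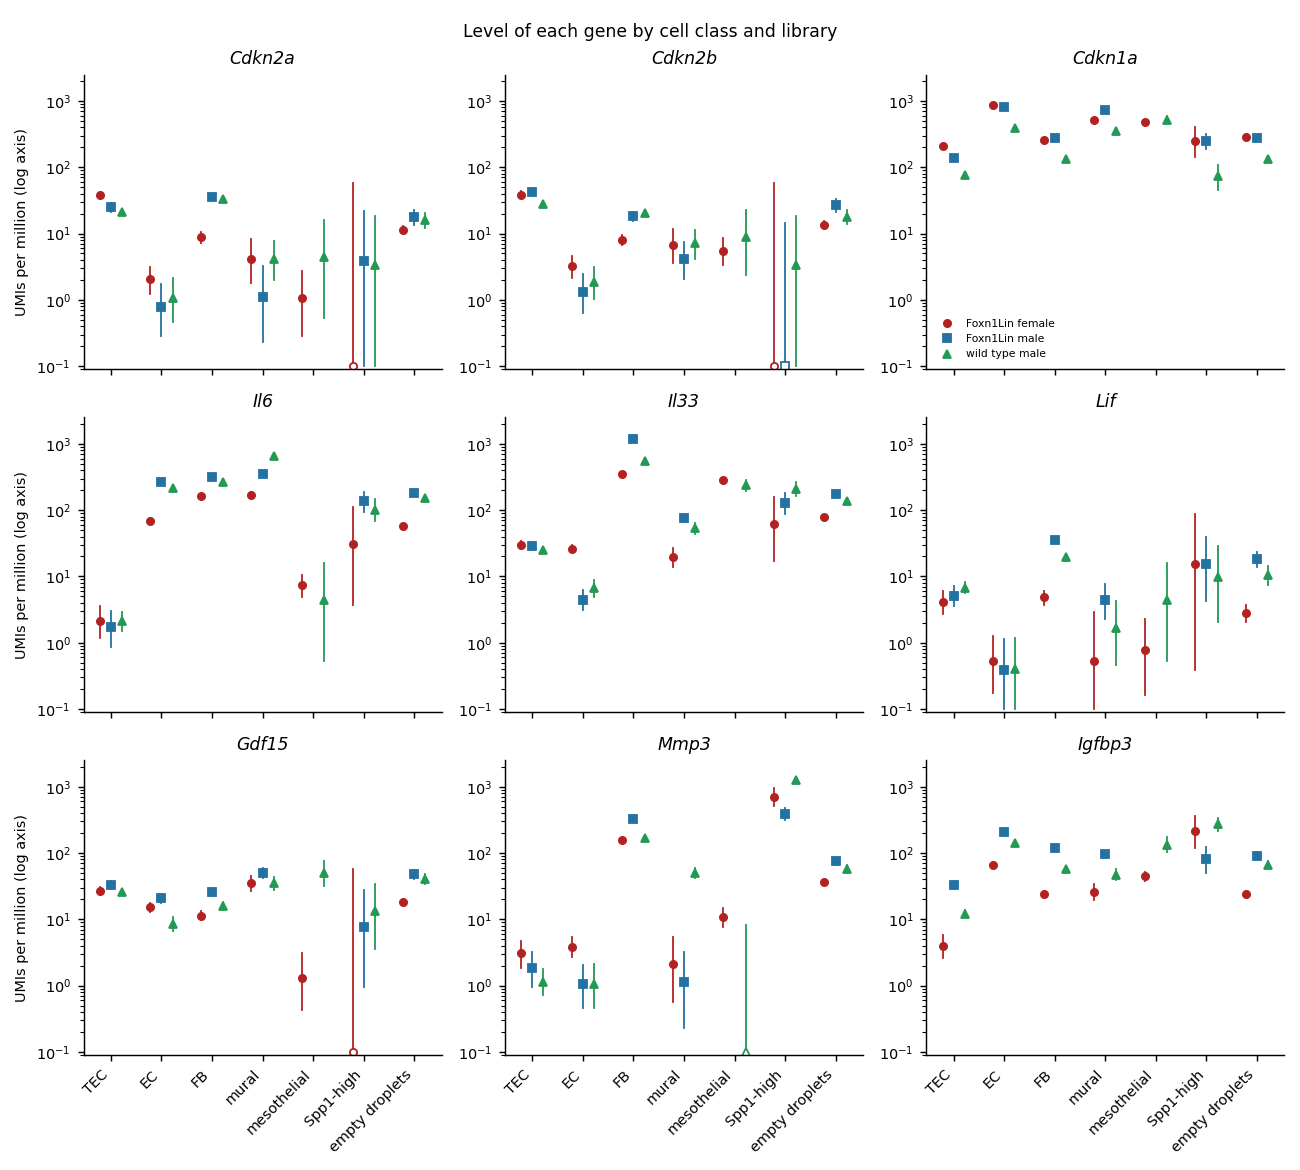
Level of each of the 9 genes in CPM on a log axis, by class and library. Points are single libraries, lines are exact 95% Poisson intervals, open points at the bottom are classes with 0 UMIs, and the last column gives droplets without a cell. Cdkn2a and Cdkn2b are high in TEC and low in EC, Cdkn1a is highest in EC in both Foxn1Lin libraries, Il6 is near 2 in TEC, and Il33, Lif and Mmp3 are high in FB.

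Il6 (chr5:30013114-30019981, plus strand), a cytokine that signals through Il6ra and the shared receptor chain Il6st, was a product of the mesenchyme and endothelium. Mural cells held 168, 353 and 649 CPM, FB 163, 318 and 263, and EC 69.4, 263 and 217. TEC held 2.15, 1.71 and 2.14 CPM, from 14, 11 and 39 UMIs. The Foxn1Lin female library was lowest in all 3 producing classes, and TEC did not overlap with any of them. Mural cells exceeded TEC by a log2 fold change of 7.72 (SE 0.50, adjusted p = 3.05e-07), FB by 7.09 (SE 0.49, adjusted p = 3.23e-07) and EC by 6.63 (SE 0.48, adjusted p = 4.82e-07). Mural cells against FB did not pass the test (0.63, SE 0.36, adjusted p = 0.22). Empty droplets held 58.3, 180 and 155 CPM of Il6, so the level in TEC was far below that of free RNA. At 2000 UMIs 18.6%, 26.7% and 18.4% of FB were positive, against 0.443%, 0.489% and 0.947% of TEC.

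In mural cells 13.6%, 17.4% and 22.6% held a UMI of Il6 at 2000 UMIs and 23.7%, 27.9% and 31.9% at 4000 UMIs, so the share rose with depth, and the single highest cell carried 12.4%, 9.29% and 9.44% of the UMIs. FB positive for Il6 held 40.5, 54.7 and 49.4 stress UMIs per 2000, and negative FB 39.8, 54.3 and 39.0. Only the wild type library showed a difference of several UMIs, and in mural cells the positive cells held fewer stress UMIs in all 3 libraries (39.3, 58.3 and 58.1 against 41.2, 63.3 and 65.7).

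Lif (chr11:4257557-4272514, plus strand), a cytokine of the same receptor family, was sparse. FB held 4.83, 35.6 and 19.5 CPM, TEC 4.15, 5.13 and 6.81, and EC 0.535, 0.394 and 0.403. In the Foxn1Lin female library FB and TEC had overlapping intervals (3.76 to 6.12 and 2.73 to 6.04), and in both male libraries FB were above TEC. FB exceeded EC by a log2 fold change of 5.01 (SE 0.57, adjusted p = 1.85e-05) and TEC by 1.70 (SE 0.43, adjusted p = 0.00503). The call against TEC was lost without the Foxn1Lin male library (1.12, adjusted p = 0.0965) and without the wild type library (1.95, adjusted p = 0.0731). Empty droplets held 2.82, 18.4 and 10.4 CPM, below FB in each library and above TEC in both male libraries.

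Il33 (chr19:29925114-29960718, plus strand) encodes a nuclear alarmin that is released from damaged cells and binds Il1rl1. It was the most abundant cytokine of the set in FB, with 348, 1200 and 558 CPM. Mesothelial cells held 284 and 240 CPM in the 2 libraries that had them, TEC 30.1, 28.9 and 24.9, and EC 26.2, 4.47 and 6.58. Empty droplets held 78.4, 177 and 137 CPM, below FB and above TEC and EC. FB exceeded TEC by a log2 fold change of 4.75 (SE 0.70, adjusted p = 0.000107) and EC by 5.66 (SE 0.75, adjusted p = 6.24e-05). At 2000 UMIs 27.5%, 59.3% and 46.2% of FB were positive, against 2.97%, 0.883% and 1.11% of EC. Mesothelial cells against FB did not pass the test (-1.31, SE 0.73, adjusted p = 0.25).

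Gdf15 (chr8:70629393-70632456, minus strand), a stress-induced hormone, showed no called class difference in any of the 15 class pairs. Mural cells held 35.0, 50.4 and 35.3 CPM, TEC 26.7, 33.3 and 26.0, FB 11.4, 25.5 and 16.1, and EC 15.2, 20.9 and 8.60. In empty droplets the level was 18.2, 47.5 and 40.4 CPM. TEC, FB and EC of both male libraries and wild type mural cells lay below that level, and in the Foxn1Lin female library TEC and mural cells lay above it. Mural cells against TEC gave a log2 fold change of 0.66 (SE 0.55, adjusted p = 0.341), and mural cells against EC, at 1.38 (SE 0.57, adjusted p = 0.0768), came closest to a call among these 4 classes. The mesothelial level of the wild type library, 50.6 CPM, came from 1 cell with 23 UMIs.

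Mmp3 (chr9:7445822-7455975, plus strand), stromelysin-1, was an FB transcript. FB held 157, 324 and 167 CPM, TEC 3.07, 1.87 and 1.15, and EC 3.85, 1.05 and 1.08. Empty droplets held 36.9, 76.1 and 57.7 CPM, below FB and above TEC and EC. FB exceeded TEC by a log2 fold change of 7.14 (SE 1.13, adjusted p = 0.000188) and EC by 6.73 (SE 1.10, adjusted p = 0.000341). At 2000 UMIs 10.0%, 15.6% and 12.6% of FB were positive. Some high values rested on a handful of cells. The 711, 392 and 1243 CPM of Spp1-high barcodes came from 4, 2 and 6 cells, and in the Foxn1Lin male library 1 of them carried 94.1% of the UMIs. The 50.4 CPM of wild type mural cells came from 7 cells, 1 with 58.3% of the UMIs, against 2.09 and 1.12 CPM in the other 2 libraries. The call of mural cells over TEC (3.29, SE 1.15, adjusted p = 0.0321) turned to -0.40 (adjusted p = 0.778) without the wild type library, and to 0.77 (adjusted p = 0.55) with lower class thresholds.

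Igfbp3 (chr11:7206086-7213923, minus strand), which binds insulin-like growth factors, was highest in EC among the 4 classes present with over 300 cells in every library. EC held 67.1, 210 and 143 CPM, FB 23.9, 120 and 57.3, mural cells 26.1, 95.9 and 47.0, and TEC 4.00, 33.3 and 12.3. The order of the libraries was the same in these 4 classes, with the Foxn1Lin male library highest and the Foxn1Lin female library lowest. Droplets without a cell had that order too, at 23.98, 91.2 and 66.7 CPM, near the levels of FB and mural cells and below those of EC. EC exceeded TEC by a log2 fold change of 3.56 (SE 0.43, adjusted p = 2e-05), and FB were below EC by -1.30 (SE 0.38, adjusted p = 0.0161), a call lost without the library block (-1.17, adjusted p = 0.276).

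Over all 15 pairs of classes, 67 of 135 comparisons of a member were called at an adjusted p under 0.05, and all 9 members passed the filter on low counts. Many genes differ between cell classes, so these counts are read beside the share of all 17639 genes tested that were called in either direction. Against TEC, 6 of 9 members were called in EC (55.2% of all genes), 7 in FB (54.1%), 6 in mural cells (48.4%), 6 in mesothelial cells (37.3%) and 5 in Spp1-high barcodes (14.4%). Against EC, 7 were called in FB (39.2%), 5 in mural cells (36.3%), 2 in mesothelial cells (33.6%) and 4 in Spp1-high barcodes (19.0%). Against FB, 6 were called in mural cells (27.7%), 5 in mesothelial cells (21.0%) and 0 in Spp1-high barcodes (6.55%). Mesothelial against mural cells gave 2 (26.4%), Spp1-high against mural cells 3 (11.8%) and Spp1-high against mesothelial cells 3 (12.5%). The shares of members in EC against TEC and in mesothelial cells against EC and mural cells were near or under those of all genes. The median log2 fold change of all genes was -0.25 in EC, -0.28 in FB and -0.25 in mural cells against TEC, and that of the members -0.71, 1.70 and 1.06. Without the wild type library the number of calls fell to 43.

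**Figure D2:**
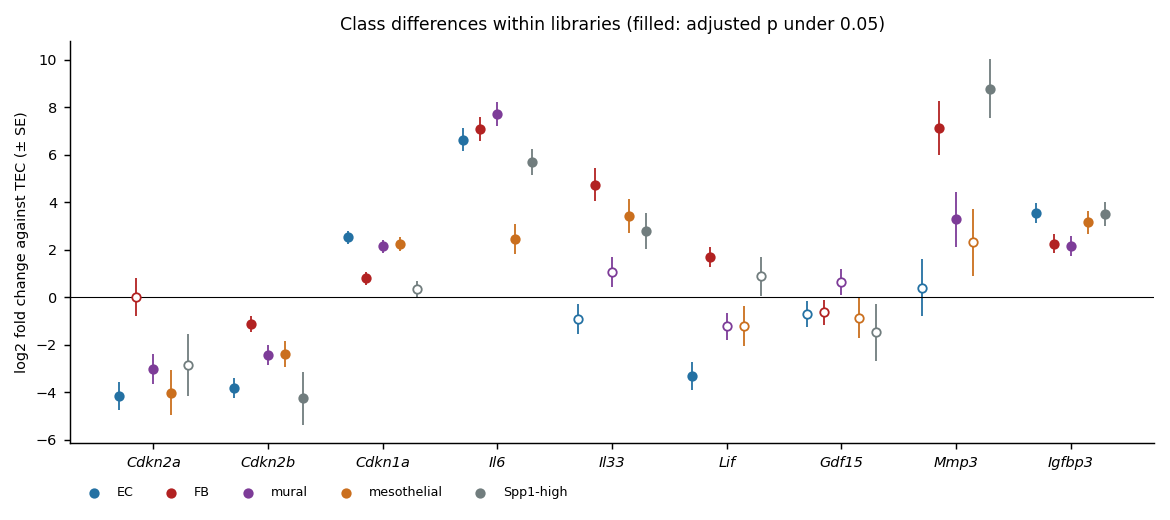
Log2 fold change of each gene against TEC with its standard error, from the fit with library as a block. Filled points passed an adjusted p of 0.05 and open points did not. Cdkn2a and Cdkn2b lie at or below 0 in every class, while Il6 lies above 5 in EC, FB, mural and Spp1-high cells.

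The members did not share 1 pattern. Across the 16 sums per library and class, which share libraries and depth, Pearson's r of log2(CPM + 1) was 0.828 between Cdkn2a and Cdkn2b and -0.643 between Cdkn2a and Cdkn1a. It was 0.722 between Il33 and Lif, 0.673 between Il33 and Mmp3 and 0.0169 between Il6 and Lif. Among 14493 genes with at least 200 UMIs, the genes most like Cdkn2a were Nfasc (r of 0.927), Spib (0.914) and Ctsh (0.908). Those most like Cdkn2b were Hspd1 (0.952), Tmem19 (0.945) and Ralgps2 (0.93), and those most like Cdkn1a were Ccdc85b (0.924), Sult1a1 (0.922) and Cav1 (0.916). For Il6 they were Acyp2 (0.965), Adamts4 (0.959) and Sparcl1 (0.939), and for Il33 Dcn (0.975), Abi3bp (0.966) and Cpq (0.948). For Lif they were Rdh10 (0.923), Plac8 (0.911) and Ccl7 (0.905), and for Mmp3 Prr16 (0.93), D630003M21Rik (0.911) and Uggt2 (0.903). For Gdf15 they were 1700008J07Rik (0.889), Cenpi (0.767) and Bcl7b (0.766), and for Igfbp3 Qk (0.856), Wsb1 (0.831) and Simc1 (0.824).

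Within TEC the inhibitors fell in the same cells more often than the product of their single shares. At 4000 UMIs per cell, Cdkn2a and Cdkn2b were found together in 14, 10 and 19 TEC, where the product of the shares gave 4.20, 2.60 and 4.24. Cdkn2a and Gdf15 were found together in 11, 7 and 10 TEC against 2.52, 1.23 and 2.93. Cdkn1a was with Cdkn2a in 24, 13 and 19 TEC against 12.9, 6.08 and 7.71. Il33 went the other way with Gdf15, in 0, 0 and 1 TEC against 2.12, 1.23 and 3.11. The counts are small and TEC subsets were not separated here. TEC with Cdkn2a, at 2000 UMIs, held 23.7, 22.6 and 16.5 stress UMIs, and TEC without it 28.1, 36.9 and 31.8.

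In FB the pairs differed from one another. Cdkn2a and Cdkn2b were found together in 8, 6 and 20 FB at 4000 UMIs, against 1.43, 4.43 and 9.80 from the product of the shares. Cdkn2b and Gdf15 were together in 4, 7 and 12 against 1.52, 4.56 and 5.79, and Cdkn2a and Igfbp3 in 1, 5 and 5 against 3.09, 10.2 and 13.5. Il6 and Il33 were found together in 196, 200 and 261 FB, against 173, 186 and 231. Il6 and Lif were together in 15, 30 and 36 against 8.42, 20.6 and 17.5. Cdkn2a and Il6 were together in 15, 16 and 21 against 12.8, 20.3 and 32.8, so FB with the arrest gene were not more often Il6-positive in the 2 male libraries.

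**Figure D3:**
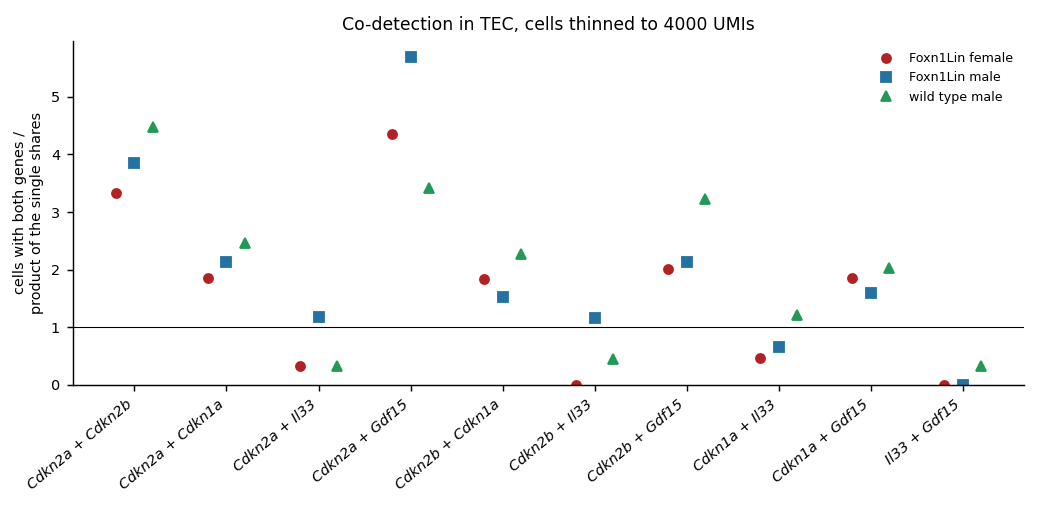
TEC with UMIs of both genes of a pair, divided by the number the product of the single shares gives, after thinning each cell to 4000 UMIs. Points are libraries and the line marks a ratio of 1. Pairs of Cdkn2a, Cdkn2b, Cdkn1a and Gdf15 lie above 1 in all 3 libraries, and Il33 with Gdf15 lies below 1.

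Claudin-3 marks an age-associated TEC state, and TEC were split at 2 UMIs of Cldn3 into 114, 82 and 245 Cldn3-high and 350, 344 and 622 other cells. The paper defines that state by this protein together with other surface markers, and reports that it lacks the medullary TEC gene Aire. The split here used Cldn3 alone, which is a looser rule. A UMI of Aire was found in 39, 24 and 61 Cldn3-high TEC. The values below describe Cldn3-high TEC, and how many of them belong to that state was not tested. Cdkn2a was 77.5, 40.3 and 33.7 CPM in Cldn3-high TEC and 23.0, 19.5 and 13.6 in the others, higher in 3 of 3 libraries. Cdkn2b was 75.2, 67.6 and 41.2 against 25.5, 33.8 and 20.1, again higher in each. The log2 fold changes were 1.38 (SE 0.19, adjusted p = 0.0147) and 1.20 (SE 0.18, adjusted p = 0.0168). These 2 of the 8 members tested were higher, beside 4.46% of 14777 genes, and Mmp3 did not pass the filter on low counts. Il33 was 8.09, 22.1 and 16.5 CPM in Cldn3-high TEC against 38.1, 31.5 and 30.3 and did not pass the test (-1.09, SE 0.32, adjusted p = 0.106). Genes of TEC subsets differed across the split too. Prss16, a cortical TEC gene, was 111, 35.2 and 189 CPM in Cldn3-high TEC against 1617, 138 and 868. Ccl21a, a medullary TEC gene, was 213, 345 and 73.5 CPM against 1023, 2151 and 811. The part of subset composition in the differences above was not tested.

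The Cldn3 split also sorted cells by depth, since the median was 12324, 17070 and 21754 UMIs in Cldn3-high TEC and 9994, 10854 and 13516 in the others. When each cell was thinned to 4000 UMIs before the split, an alternative chosen after these values were seen, 60, 32 and 77 Cldn3-high TEC were left and neither gene passed the test. Cdkn2a then gave 0.59 (SE 0.42, adjusted p = 0.477), with 75.0, 39.1 and 13 CPM against 32.4, 26.2 and 20.0, and its direction differed in the wild type library. Cdkn2b gave 1.20 (SE 0.37, adjusted p = 0.0632), with 112.5, 31.3 and 58.4 CPM against 31.0, 36.7 and 25.8, so its direction differed in the Foxn1Lin male library, where 4 UMIs were counted in Cldn3-high TEC. At full depth both calls were lost without the Foxn1Lin female library (Cdkn2a 1.25, adjusted p = 0.0722, and Cdkn2b 1.08, adjusted p = 0.0668) and without the wild type library (1.39, adjusted p = 0.0645, and 1.25, adjusted p = 0.0665). Calls of other genes given below for this split are from full depth and all libraries only.

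Pi16 marks adventitial-type fibroblasts, and FB were split at 2 UMIs of Pi16 into 716, 81 and 171 positive and 1132, 779 and 1534 other cells. Of the 9 members, 6 were lower in the Pi16-positive cells and 3 did not pass the test. Il33 was 202, 401 and 305 CPM against 465, 1296 and 590, a log2 fold change of -1.27 (SE 0.17, adjusted p = 0.00101). Mmp3 was 106, 128 and 76.3 CPM against 198, 348 and 178 (-1.16, SE 0.15, adjusted p = 0.000939). Cdkn2b was 3.91, 10.9 and 8.94 CPM against 11.4, 19.2 and 22 (-1.27, SE 0.23, adjusted p = 0.00473). Cdkn2a was 2.03, 25 and 18.5 CPM against 14.2, 37.2 and 35.1 (-1.33, SE 0.34, adjusted p = 0.028). These differences pointed the same way in 3 of 3 libraries. Pi16 itself was 572, 122 and 141 CPM in FB and 111, 3.81 and 4.16 in EC, which should lack it, so the female library carried more of it outside FB, and the part of free RNA in its Pi16-positive count was not tested.

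Lif (-1.07, SE 0.20, adjusted p = 0.00608) and Gdf15 (-1.22, SE 0.33, adjusted p = 0.0378) were lower as well, so 6 of 9 members were lower beside 8.4% of 13103 genes. The Gdf15 call was lost without the Foxn1Lin female library (-0.59, adjusted p = 0.21), without the Foxn1Lin male library (-1.32, adjusted p = 0.0721) and with higher class thresholds (-0.81, adjusted p = 0.126). The Cdkn2a call was lost without the wild type library (-1.60, adjusted p = 0.0803) and with higher class thresholds (-0.97, adjusted p = 0.0771), and none of the 6 was called without the library block. Il6 was 133, 333 and 277 CPM in Pi16-positive FB and 187, 316 and 261 in the others and did not pass the test (-0.10, SE 0.15, adjusted p = 0.738), nor did Cdkn1a (0.11, adjusted p = 0.738) or Igfbp3 (0.28, adjusted p = 0.337). After thinning to 4000 UMIs before the split, 5 of the 6 genes passed the test and Lif did not (-1.01, SE 0.38, adjusted p = 0.128), but the sizes moved. Cdkn2a went to -3.87, resting on 1 UMI in the Pi16-positive FB of each library, Gdf15 to -2.77 and Mmp3 to -0.66 (SE 0.20, adjusted p = 0.0488). Depth was slightly higher in Pi16-positive FB, with medians of 8678, 11314 and 8881 UMIs against 6607, 9247 and 8130. The stress list was lower in them, at 16350, 18970 and 16730 CPM against 21330, 27480 and 20160, and its part in the difference was not tested.

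**Figure D4:**
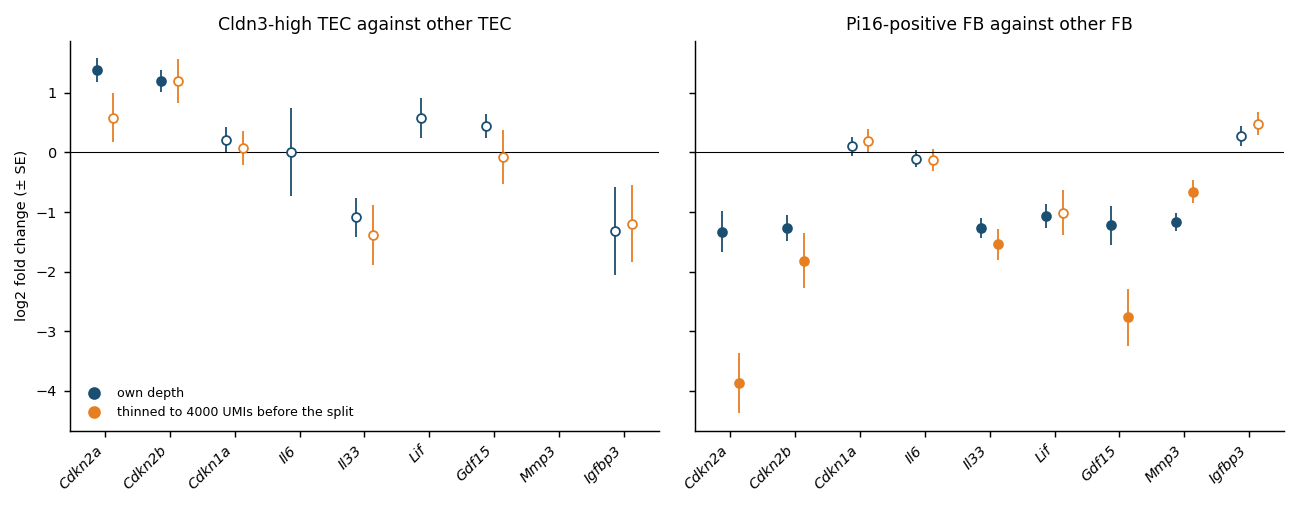
Log2 fold change with its standard error for Cldn3-high against other TEC and Pi16-positive against other FB. Dark points use cells at their own depth, orange points cells thinned to 4000 UMIs before the split, and filled points passed an adjusted p of 0.05. Genes without a point did not pass the filter on low counts. In TEC both calls are lost after thinning, and in FB 5 of 6 genes pass, with Cdkn2a and Gdf15 moving further below 0 and Mmp3 closer to it.

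Between libraries the largest set of differences lay in FB. The Foxn1Lin female library was lower than the Foxn1Lin male by at least 2-fold in 7 of 9 members, beside 5.98% of all genes with 20 UMIs that were lower by that much and 18.7% that passed 2-fold either way. The male exceeded the female 7.36-fold for Lif, 5.00-fold for Igfbp3, 4.10-fold for Cdkn2a, 3.45-fold for Il33, 2.27-fold for Cdkn2b, 2.24-fold for Gdf15 and 2.07-fold for Mmp3. Cells counted as Pi16-positive, which were low in most of these genes, were 716 of 1848 female and 81 of 860 male FB, with the Pi16 level outside FB higher in the female library as given above. Among FB without them the ratios were 5.82 for Lif, 4.50 for Igfbp3, 2.62 for Cdkn2a and 2.79 for Il33, so 4 of 9 members were lower by at least 2-fold, beside 4.66% of all genes, and the other 5 were within 2-fold. Cdkn1a was within 2-fold in both comparisons of the female with the male FB.

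**Figure D5:**
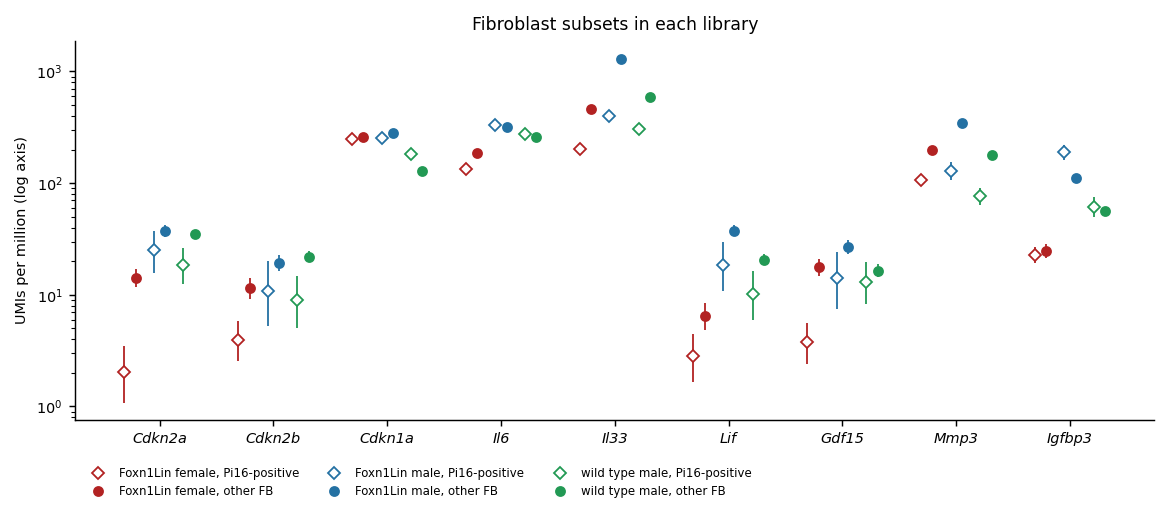
CPM, on a log axis, of each gene in Pi16-positive FB (open diamonds) and other FB (filled circles) of each library, with exact 95% Poisson intervals. Il33, Mmp3, Cdkn2a, Cdkn2b, Lif and Gdf15 are lower in Pi16-positive FB in each library, and the Foxn1Lin female points are lowest for Il33, Lif, Cdkn2a and Igfbp3.

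In the other classes, the female against the male Foxn1Lin library gave 1 of 9 members past 2-fold in TEC (17.7% of genes), 6 of 8 in EC (18.1%) and 3 of 6 in mural cells (14.1%). In TEC this was Igfbp3, 8.32-fold higher in the male library. In EC Il6 was 3.79-fold and Igfbp3 3.13-fold higher in the male library, while Il33, at 26.2 against 4.47 CPM, was 5.86-fold higher in the female. Cdkn2a, Cdkn2b and Mmp3, at 2.03, 3.21 and 3.85 CPM in the EC of the female library, were also past 2-fold. The female EC carried up to 814 CPM of the FB marker list, the lowest EC value being 73.0, and 26.5% of the female library's UMIs lay outside called barcodes, against 12.9% and 9.46%. The part of free RNA in these EC values was not tested.

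Both comparisons share the Foxn1Lin male library. Against the wild type male it gave 1 of 9 members past 2-fold in TEC (15.2% of genes), 2 of 6 in EC (9.89%), 3 of 9 in FB (11.0%), 3 of 7 in mural cells (11.4%) and 3 of 5 in Spp1-high barcodes (20.7%). In the 28 and 34 Spp1-high barcodes these were Cdkn1a, at 248 against 72.6 CPM, with 1 cell carrying 75% of the 64 UMIs of the Foxn1Lin male library, Mmp3, at 391.6 against 1243, and Igfbp3, at 81.4 against 274. These values rest on few cells, and the direction of Cdkn1a on that cell. Cdkn1a was 2.11-fold higher in the Foxn1Lin male library in EC, 2.10-fold in FB and 2.12-fold in mural cells. Empty droplets of these libraries, with 275 and 134 CPM of Cdkn1a, differed likewise. Igfbp3 was 2.71-fold higher in TEC, 2.09-fold in FB and 2.04-fold in mural cells of the Foxn1Lin male library, and Il33 2.15-fold higher in FB. Gdf15 was 2.43-fold higher in its EC, at 20.9 against 8.60 CPM. Mmp3 in mural cells went the other way, at 1.12 against 50.4 CPM, with 1 cell carrying 58.3% of the wild type UMIs. Il6 was within 2-fold in TEC, EC, FB and mural cells.

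The receptor chains of Il6 and Lif were detected in the stroma, whereas the ligand-binding chains of Il33 and Gdf15, Il1rl1 and Gfral, were at or near 0. Il6st, the signalling chain shared by Il6 and Lif, was 325, 686 and 915 CPM in EC, 300, 266 and 294 in FB and 116, 138 and 177 in TEC, and EC exceeded TEC by a log2 fold change of 2.36 (SE 0.26, adjusted p = 1.02e-05). Il6ra was 88.1, 90.6 and 56.8 CPM in FB and 18.4, 35.6 and 34.9 in TEC, with FB higher by 1.58 (SE 0.33, adjusted p = 0.0014). Lifr was 353, 393 and 447 CPM in TEC, the highest of TEC, EC, FB and mural cells in each library. At full depth Lifr was lower in Cldn3-high than in other TEC by a log2 fold change of -1.81 (SE 0.17, adjusted p = 0.00497). The Il33 receptor Il1rl1 stayed at or under 1.68 CPM and the Gdf15 receptor Gfral at or under 0.262 CPM in all classes. Their partner chains were present, with Il1rap at 21.2, 27.8 and 29.2 CPM in FB and 15.1, 21.0 and 24.7 in TEC, and Ret at 8.34, 5.60 and 12.1 in FB and 1.84, 2.95 and 2.20 in TEC. Ret was higher in FB than in TEC by a log2 fold change of 2.08 (SE 0.37, adjusted p = 0.000649). Of the 11 listed receptors, 9 were tested, and 7 were higher and 1 lower in FB than in TEC (median log2 fold change 1.18), beside 54.1% of all genes called either way.

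Among 28 other arrest genes and p53 targets, 3 were higher and 13 lower in FB than in TEC, beside 54.1% of all genes called, and 6 were higher and 12 lower in EC, beside 55.2%. These shares of the list were near those of all genes. In EC Plk2 was higher than in TEC by 2.96 (SE 0.23, adjusted p = 7.49e-07) and the p53 target Eda2r by 3.26 (SE 0.36, adjusted p = 1.04e-05), while 12 of the 18 genes called were lower. Among these were Perp, an epithelial adhesion gene as well as a p53 target, at -5.70 (SE 0.46, adjusted p = 9.34e-07), and the p53 target Phlda3 at -3.06 (SE 0.27, adjusted p = 1.87e-06). In Cldn3-high TEC 3 of 28 were higher and 0 lower, beside 7.65% of all genes called either way, among them the cyclin gene Ccnd1 at 1.15 (SE 0.16, adjusted p = 0.0152). In Pi16-positive FB 3 were higher and 5 lower, beside 14.9% of all genes called either way. Lower genes included Ccnd1 at -0.86 (SE 0.14, adjusted p = 0.00317) and Eda2r at -0.80 (SE 0.17, adjusted p = 0.0127). Higher genes included the lamin gene Lmnb1 at 1.31 (SE 0.19, adjusted p = 0.0019) and the cell cycle inhibitor gene Cdkn1c at 1.05 (SE 0.18, adjusted p = 0.00346).

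Of 48 other secretory genes 44 were tested between classes, and 22 were higher and 8 lower in FB than in TEC, beside 54.1% of all genes called, with a median log2 fold change of 1.03 beside -0.28 over all genes. The chemokine gene Ccl20 was lower in FB than in TEC by -6.83 (SE 0.35, adjusted p = 6.28e-08), and it was higher in Cldn3-high than in other TEC by 2.32 (SE 0.34, adjusted p = 0.016). In EC, 8 were higher and 23 lower than in TEC, beside 55.2% of all genes called, and Csf3, a granulocyte growth factor, was higher by 7.06 (SE 0.61, adjusted p = 1.52e-06). Pi16-positive FB were higher in 8 and lower in 10 of 37 tested, beside 14.9% of all genes called, with Igfbp5 at 2.83 (SE 0.23, adjusted p = 0.00012) and Igfbp6 at 2.17 (SE 0.17, adjusted p = 0.000115), whereas Mmp9 fell by 2.08 on the log2 scale (SE 0.18, adjusted p = 0.00015). Of the 27 stress genes, 15 were higher and 2 lower in FB than in TEC, where 54.1% of all genes were called. In Pi16-positive against other FB 2 were higher and 7 lower, where 14.9% of all genes were called, led by Hspa1a at -2.15 (SE 0.15, adjusted p = 6.57e-05).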

How the data were processed

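Single-cell 3' libraries of CD45- thymic stroma were made with a 10x kit and counted by the authors with Cell Ranger 7.0.1 against mm10 with reporter sequences added and intronic reads included. The deposited values are UMI counts per gene and barcode. The members and gene lists were chosen with earlier results of these data known. Barcodes with at most 1000 genes together with at least 20% mitochondrial counts were removed, and barcodes in 2 classes were dropped. Scrublet, from scanpy 1.11.5, automatically marked 0, 15 and 1 doublets, so its automatic call was not used.

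Counts were summed per library and class with at least 20 cells, which left out the Spp1-high barcodes of the Foxn1Lin female library. They were tested with edgeR 4.0.16 (quasi-likelihood, TMM, filterByExpr, library as a block) and Benjamini-Hochberg adjustment over all genes tested. The script was tested on simulated data. The summed counts of a class come from 1 library per group. The block removes differences between whole libraries, so p-values rest on how far class differences vary over these 3 libraries. Mesothelial cells and Spp1-high barcodes entered the fit from 2 libraries each. Shares were computed after thinning each cell to 2000 or 4000 UMIs. Between libraries, CPM ratios of at least 2-fold with at least 20 UMIs in both together were counted. Poisson intervals are exact at 95%. Empty droplets were barcodes within 140 to 558, 21 to 82 and 25 to 98 UMIs. Named genes were the members, up to 4 called genes per list and contrast with the largest change, and the 3 most correlated genes per member. Alternatives covered normalization, DESeq2, filters, doublets, class thresholds, thinning and left-out libraries.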

Additional observations from a re-analysis of the deposited data

How the results depend on the processing

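Of 75 called differences of a member, all kept their direction and call with DESeq2, RLE normalization, no filter on low counts and no quality filter, 73 with the stricter quality filter, 74 with doublets removed, 67 with lower and 66 with higher class thresholds, and 54 without the library block. Without the Foxn1Lin female, Foxn1Lin male or wild type library 67, 57 and 42 kept their call, and the only reversal was Mmp3 in mural cells against TEC without the wild type library (-0.40, and up to 4.45 with another library left out). The 67 calls between classes became 43 to 82 when a library was left out. The 2 calls in Cldn3-high TEC became 0 to 2 when a library was left out, 0 without the library block and 0 after thinning to 4000 UMIs before the split. The 6 calls in Pi16-positive FB were 5 with each library left out, and 0 without the library block. The 29 differences past 2-fold between libraries became 25 to 33. The ratio of TEC with both Cdkn2a and Cdkn2b to the product of their shares, summed over libraries, was 3.89, and 3.02 without thinning. The causes of these changes were not tested.
Between groups no paired analysis was possible because each group is 1 library, while classes and subsets were paired within a library by the block. Since each group is a single library, nothing between libraries could be set against replicate error, and low totals limit what a level near 0 can show.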

Other observations

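TEC with a UMI of Cdkn2a, Cdkn2b or Gdf15 differed from other TEC in genes of TEC subsets, and the shares for Cdkn1a are given beside them. These genes were chosen after the values were seen and are given as a description. At 4000 UMIs per cell, Aire, the regulator of self-antigen expression in medullary TEC, was found in 44.7%, 44.0% and 47.9% of the 38, 25 and 48 TEC with Cdkn2a and in 24.7%, 12.9% and 16.0% of TEC without it. For Cdkn2b these shares were 42.2%, 47.4% and 43.7% against 24.6%, 11.3% and 15.4%, and for Gdf15 51.9%, 72.2% and 65.3% against 24.7%, 12.1% and 14.9%. Prss16, a protease of cortical TEC, was found in 5.26%, 0% and 4.17% of TEC with Cdkn2a and in 30.9%, 13.5% and 18.3% of those without. For Cdkn1a, Aire was found in 24.6%, 15.7% and 21.7% of positive against 27.5%, 14.8% and 17.2% of negative TEC, and Prss16 in 23.9%, 14.6% and 19.4% against 30.9%, 11.9% and 17.1%. TEC with Il33 had Aire in 6.25%, 4.00% and 5.88%, against 28.3%, 15.8% and 18.8% of TEC without Il33. Mki67, a proliferation gene, was found in 0%, 12.0% and 12.5% of TEC with Cdkn2a, that is in few cells, against 3.79%, 2.05% and 4.50%. Top2a, also a proliferation gene, was found in 13.2%, 8.0% and 16.7% of them against 8.40%, 2.64% and 4.24%. Aire was lower in Cldn3-high than in other TEC in 2 of 3 libraries, at 128, 152 and 91.2 CPM against 227, 144 and 168. Detection of these genes in the same cells was not tested.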
